A study of Mus musculus with 2 samples.

Results

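The genes described are 10 members of 6 microRNA (miRNA) families known mainly from neurons, measured in the mouse adrenal gland. They are Mir128-1, Mir128-2, Mir137, Mir218-1, Mir218-2, Mir138-1, Mir138-2, Mir129-1, Mir129-2 and Mir153, chosen by their GENCODE M21 gene symbols and not by their levels, and they are 10 of 2202 miRNA genes in the count tables. Small RNA was sequenced from whole adrenal glands of female B6CASTF1/J mice, an F1 cross between the C57BL/6J and CAST/EiJ strains, at 14 days of age. The series holds 1 group of 2 libraries, labelled biological replicates 2 and 1, with no treatment, allele or other condition to compare. The label of replicate 2 names a single numbered female and that of replicate 1 names 3 females, while both give 1 donor identifier, and whether replicate 1 is a pool of animals is not stated. Replicate 2 held 5034257 counts on miRNA genes and replicate 1 held 3797107.

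The adrenal medulla lies at the centre of the gland, and its chromaffin cells come from the neural crest, store catecholamines and are driven by preganglionic nerve fibres. Neurons and chromaffin cells share much of the machinery for regulated secretion, while the surrounding cortex makes steroids. A miRNA is cut from a hairpin precursor that can give a product from each arm, the 5p and the 3p arm. Bases 2 to 8 of a product, its seed, pair with target messenger RNAs and repress them. The tables count reads per hairpin gene, so the arms are not told apart, and a summary line holds the reads with more than 1 mapping place, which enter no gene. A read confined to a stretch that a pair of copies shares would therefore count on neither copy.

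The annotated products of the 10 genes are shown first, because their letters decide which reads could be counted. All 10 genes matched the RefSeq sequence table of build GRCm38.p6 by symbol, with 19 annotated arms. The sequences run 5′ to 3′, with the seed in capitals, and a product that a pair of genes shares is written once.
miR-128-3p, of Mir128-1 and Mir128-2: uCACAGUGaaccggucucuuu
miR-128-1-5p, of Mir128-1: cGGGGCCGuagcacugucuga
miR-128-2-5p, of Mir128-2: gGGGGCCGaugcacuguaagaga
miR-137-3p, of Mir137: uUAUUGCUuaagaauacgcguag
miR-137-5p, of Mir137: aCGGGUAUucuuggguggauaau
miR-218-5p, of Mir218-1 and Mir218-2: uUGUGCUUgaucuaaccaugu
miR-218-1-3p, of Mir218-1: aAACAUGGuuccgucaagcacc
miR-218-2-3p, of Mir218-2: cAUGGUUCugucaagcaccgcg
miR-138-5p, of Mir138-1 and Mir138-2: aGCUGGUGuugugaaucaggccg
miR-138-1-3p, of Mir138-1: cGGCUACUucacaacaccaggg
miR-138-2-3p, of Mir138-2: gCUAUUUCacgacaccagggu
miR-129-5p, of Mir129-1 and Mir129-2: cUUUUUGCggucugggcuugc
miR-129-2-3p, of Mir129-2: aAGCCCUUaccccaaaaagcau
miR-153-3p, of Mir153: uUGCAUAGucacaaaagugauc
miR-153-5p, of Mir153: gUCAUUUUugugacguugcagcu

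Of the 19 annotated arms, 8 were found whole in the hairpin of another miRNA gene, and 11 were not. In each of the 4 pairs of copies the shared arm is miR-128-3p, miR-218-5p, miR-138-5p or miR-129-5p, the product for which each family is best known in neurons. The pair Mir128-1 and Mir128-2 also shares the seed GGGGCCG of its 5p arms, which otherwise differ in sequence. Mir137 and Mir153, the genes without a copy, had 2 unshared arms each. Mir129-1 had a single annotated arm in the RefSeq table, and it is shared. Outside the 10 genes, the miR-218-5p seed UGUGCUU was found in 1 other annotated gene, Mir7002, with 3 counts in replicate 2 and 0 in replicate 1. The miR-218-1-3p seed AACAUGG was found in Mir496b, with 0 counts in both libraries. No seed of another arm listed here occurred in a further annotated gene.

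Hairpins of the Mir128 and Mir129 pairs and of Mir137 are shown as examples of what a read must cover to be assigned. Capitals mark the longest run common to both copies, which is 23 bases for Mir128-1 and Mir128-2 and 26 bases for Mir129-1 and Mir129-2. Both annotated arms are in capitals for Mir137.
Mir128-1: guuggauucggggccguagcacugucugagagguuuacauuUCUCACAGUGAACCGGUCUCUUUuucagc
Mir128-2: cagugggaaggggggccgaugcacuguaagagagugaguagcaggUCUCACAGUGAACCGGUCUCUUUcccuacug
Mir129-1: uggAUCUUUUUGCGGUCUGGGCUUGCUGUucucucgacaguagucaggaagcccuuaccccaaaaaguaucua
Mir129-2: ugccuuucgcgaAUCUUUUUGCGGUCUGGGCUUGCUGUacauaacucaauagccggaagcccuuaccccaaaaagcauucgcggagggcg
Mir137: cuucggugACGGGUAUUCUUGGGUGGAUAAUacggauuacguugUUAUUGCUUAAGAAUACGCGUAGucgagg
The longest common run was 22 bases for Mir218-1 and Mir218-2 and 24 bases for Mir138-1 and Mir138-2. In each pair this run reaches at most a few bases beyond the shared arm. Capitals do not mark all that the Mir129 pair shares, since the first 18 bases of miR-129-2-3p also occur in the Mir129-1 hairpin. Identity over the whole aligned hairpins was 71.4% for the Mir128 pair, 70.9% for the Mir218 pair, 49.5% for the Mir138 pair and 68.1% for the Mir129 pair. Of all windows of 20 bases, the share that occurs in another hairpin ran from 3.30% in Mir218-1 and Mir218-2 to 16.7% in Mir129-1, and was 0% in Mir137 and Mir153.

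**Figure D1:**
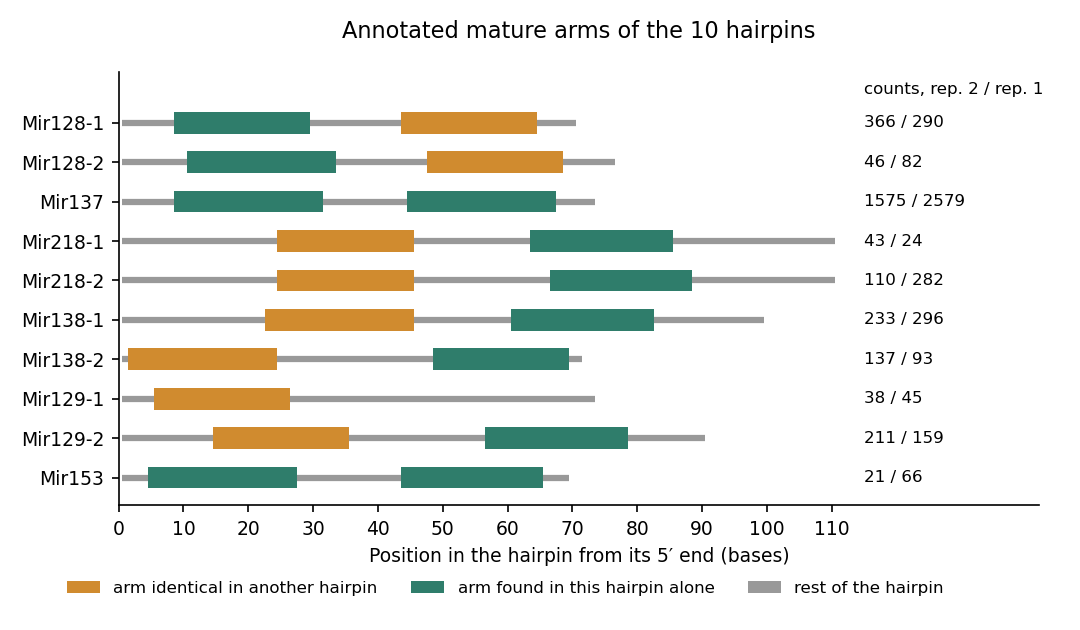
Annotated mature arms along each hairpin, in bases from its 5′ end, with the counts of replicate 2 and replicate 1 at the right. Orange arms are identical in another hairpin and green arms are found in that hairpin alone; the 8 genes with a copy each have 1 orange arm, and Mir137 and Mir153 have none.

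All 10 genes were detected, detection meaning 10 or more counts in both libraries. Over all annotated miRNA genes 16.3% were. They were scarce, with a summed 2780 counts in replicate 2 and 3916 in replicate 1. The share of miRNA counts was 0.0552% in replicate 2, with a Wilson 95% interval of 0.0532 to 0.0573, against 0.103% in replicate 1, with an interval of 0.0999 to 0.106. This gave a mean of 0.0792% ± 0.0339 (SD, n = 2). Reads set aside for mapping to several places numbered 2795730 in replicate 2 and 3002371 in replicate 1. These pools were 1006 times the summed counts of the 10 genes in replicate 2 and 767 times in replicate 1, and how much of them came from shared arms was not tested. Levels are given as CPM, the usual per-library scaling of counts by the total of miRNA counts, with no division by length, because a read spans a whole product and products are of nearly equal length. No molecular identifiers are stated for these reads, so intervals cover counting error only. In a whole gland, fewer cells of a type and less RNA per cell cannot be told apart.

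Mir137, which acts in neural development and synaptic function, had the most assignable reads of the 10 genes. Reads confined to a shared arm are missing for 8 of the other 9, so the order of the miRNA products themselves may differ. It had 1575 counts in replicate 2 and 2579 in replicate 1, or 313 CPM in replicate 2 and 679 CPM in replicate 1. Its mean was 496 CPM ± 259 (SD, n = 2), place 108 among all miRNA genes. It supplied 56.7% of the summed counts in replicate 2 and 65.9% in replicate 1. The next gene, Mir128-1, was 4.30-fold below it in replicate 2 and 8.89-fold below it in replicate 1. Mir137 was also the 1 gene of the 10 above the median of detected genes, which was 116 CPM. It has no annotated copy, so no loss to a shared arm was found for it.

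Mir153 is the other gene without a copy, and it was among the scarcest. In zebrafish and mammalian neurons miR-153 acts on proteins of synaptic vesicle release. It had 21 counts in replicate 2 and 66 in replicate 1, or 4.17 CPM in replicate 2 and 17.4 CPM in replicate 1. The Wilson 95% intervals, 2.73 to 6.38 CPM in replicate 2 and 13.7 to 22.1 CPM in replicate 1, did not overlap. Its host gene is Ptprn2, which encodes a membrane protein of dense-core vesicles in neuroendocrine cells.

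The Mir128 genes encode a brain-enriched product that restrains neuronal excitability in mice. Mir128-1 had 366 counts in replicate 2 and 290 in replicate 1, which is 72.7 CPM in replicate 2 and 76.4 CPM in replicate 1. Mir128-2 had 46 counts in replicate 2 and 82 in replicate 1, or 9.14 CPM in replicate 2 and 21.6 CPM in replicate 1. By CPM the levels of Mir128-1 lay close together and those of Mir128-2 apart. Under the TMM scaling used for the ratios, which sets the bulk of detected genes level, Mir128-1 was instead higher in replicate 2, with a log2 ratio of 0.36 (0.13 to 0.59), short of the ratio of 1 needed for a call. Because miR-128-3p is shared, these counts leave out reads confined to the common 23 bases, and they say nothing of the total amount of miR-128-3p.

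The miR-218 family is known from motor neurons, and both its genes lie in introns of axon guidance genes. Mir218-2 had 110 counts in replicate 2 and 282 in replicate 1, or 21.9 CPM in replicate 2 and 74.3 CPM in replicate 1. Mir218-1 had the lowest mean of the 10 genes, although Mir153 was below it in replicate 2, with Mir218-1 at 43 counts in replicate 2 and 24 in replicate 1. Its mean of 7.43 CPM ± 1.57 (SD, n = 2) still lay well above the limit that a count of 0 allows, 0.596 CPM in replicate 2 and 0.790 CPM in replicate 1. The copies went opposite ways between the libraries, Mir218-2 being lower and Mir218-1 higher in replicate 2 by CPM.

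The miR-138 product limits the size of dendritic spines in rat neurons. Mir138-1 had 233 counts in replicate 2 and 296 in replicate 1, or 46.3 CPM in replicate 2 and 78.0 CPM in replicate 1. Mir138-2 had 137 counts in replicate 2 and 93 in replicate 1, or 27.2 CPM in replicate 2 and 24.5 CPM in replicate 1. The ranges of these 2 genes did not overlap, with Mir138-1 above Mir138-2 in both libraries.

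The miR-129 product represses a voltage-gated potassium channel in rat neurons. Mir129-2 had 211 counts in replicate 2 and 159 in replicate 1, which is 41.9 CPM in each. Mir129-1 had 38 counts in replicate 2 and 45 in replicate 1, or 7.55 CPM in replicate 2 and 11.9 CPM in replicate 1. Mir129-1 was counted although its single annotated arm is shared, and which reads it was counted from was not tested. The first 18 bases of miR-129-2-3p also occur in the hairpin of Mir129-1, so the split of reads between these copies is uncertain.

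Ordered by mean CPM the genes ran Mir137, Mir128-1, Mir138-1, Mir218-2, Mir129-2, Mir138-2, Mir128-2, Mir153, Mir129-1 and Mir218-1. Of the 9 steps between neighbours in that order, 6 had overlapping ranges of the 2 libraries. Among these, Mir138-1 lay above Mir218-2 at 46.3 against 21.9 CPM in replicate 2 and 78.0 against 74.3 CPM in replicate 1. Mir128-2 lay above Mir153 at 9.14 against 4.17 CPM in replicate 2 and 21.6 against 17.4 CPM in replicate 1. For both steps the Wilson intervals overlapped in replicate 1 but not in replicate 2. The remaining overlapping steps changed direction between the libraries and cannot be ordered. The steps below Mir137, below Mir129-2 and below Mir138-2 did not overlap.

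**Figure D2:**
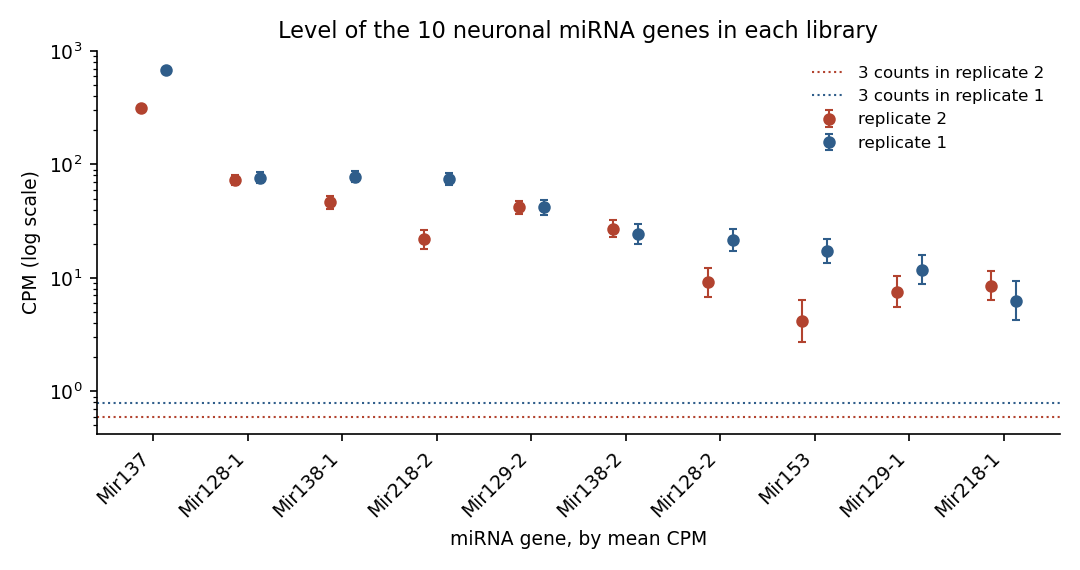
CPM of each gene in replicate 2 and replicate 1 on a log scale, with Wilson 95% intervals; dotted lines show the level of 3 counts. Mir137 stood at 313 CPM in replicate 2 and 679 CPM in replicate 1, above the other 9 genes, and all points lay above the dotted lines.

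In each pair the copies had unequal counts, least so for Mir138-1 and Mir138-2 in replicate 2. The share of a copy in the pair's counts is a ratio within a library, so neither the library total nor the scaling enters it. Mir128-1 gave 88.8% of its pair in replicate 2 (exact 95% interval 85.4 to 91.7) and 78.0% in replicate 1 (73.4 to 82.1). Mir218-1 gave 28.1% in replicate 2 (21.1 to 35.9) and 7.84% in replicate 1 (5.09 to 11.5). Mir138-1 gave 63.0% in replicate 2 (57.8 to 67.9) and 76.1% in replicate 1 (71.5 to 80.3). For these 3 pairs the intervals of the libraries did not overlap, while the same copy led in both. Mir129-1 gave 15.3% in replicate 2 (11.0 to 20.3) and 22.1% in replicate 1 (16.6 to 28.4), with overlapping intervals. These shares hold only reads that could be assigned, and unequal length of the unshared parts and unequal use of the arms can enter them.

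**Figure D3:**
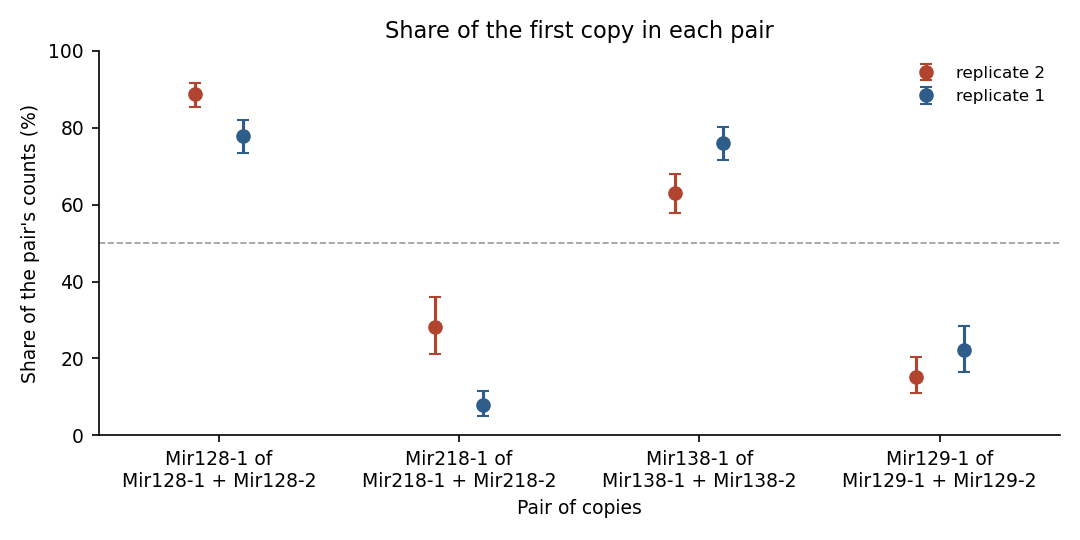
Share of a pair's counts, in percent, that came from its first-named copy in replicate 2 and replicate 1, with exact 95% intervals of counting error; the dashed line marks equal copies. Mir128-1 and Mir138-1 lay above the line and Mir218-1 and Mir129-1 below it in both libraries.

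Summed over copies, miR-128 genes had 81.8 CPM in replicate 2 and 98.0 CPM in replicate 1, and miR-138 genes had 73.5 CPM in replicate 2 and 102 CPM in replicate 1. These families reached similar sums, with means of 89.9 CPM ± 11.4 for miR-128 and 88.0 CPM ± 20.5 for miR-138 (SD, n = 2). The miR-218 genes had 30.4 CPM in replicate 2 and 80.6 CPM in replicate 1. The miR-129 genes had 49.5 CPM in replicate 2 and 53.7 CPM in replicate 1. Each sum leaves out reads confined to the arm its copies share, so it may lie below the true level of the family.

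Detection was set beside arm sharing over all miRNA genes, as a description that does not account for how abundant each family is. Of 1022 genes with an annotated arm, 50 had all their arms in another hairpin, and 12% of these were detected, while 78% had no count in either library. Of 61 genes with some arms shared, 70.5% were detected and 18% had no count. Of 911 genes with none shared, 30.2% were detected and 34.8% had no count. The 10 genes fall into these classes as 1, Mir129-1, with all arms shared, 7 with some and 2 with none. The median count, averaged over the libraries, among detected genes was 95 where all arms are shared, 196 where some are and 611 where none is. Over all genes of a class, detected or not, it was 0 with all arms shared, 70.5 with some and 1.5 with none. The order of the classes with some and with no arms shared thus depends on the detection filter.

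The genes were compared between the libraries to measure how far their values differ in this tissue. The log2 ratio is replicate 2 over replicate 1 with TMM scaling, which sets the bulk of detected genes level, and an exact two-sided binomial test set each gene's 2 counts against the effective library sizes. A gene was called at a Benjamini-Hochberg adjusted p under 0.05 over all 358 detected genes and a log2 ratio of 1 or more in either direction. The test compares the reads of 2 libraries, not conditions and not animals. Of the 10 genes 2 were lower in replicate 2 (8.66% of all tested genes were) and 0 were higher (9.22% were). At an adjusted p under 0.05 without the ratio minimum 9 of the 10 passed, as did 67.9% of all tested genes.

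The log2 ratio of Mir153 was -1.61, with a 95% counting interval of -2.41 to -0.90 and an adjusted p of 3.2e-06 in the exact binomial test. For Mir218-2 it was -1.33 (-1.67 to -1.01), with an adjusted p of 1.28e-17 in the exact binomial test. Mir128-2 and Mir137 followed at -0.80 (-1.36 to -0.27) and -0.69 (-0.78 to -0.60) and were not called. On the other side stood Mir218-1 at 0.85 (0.11 to 1.65), Mir138-2 at 0.58 (0.19 to 0.98), Mir129-2 at 0.43 (0.13 to 0.74) and Mir128-1 at 0.36 (0.13 to 0.59). Mir138-1, at -0.32 (-0.58 to -0.07), also lay within the ratio minimum. Mir129-1, at -0.22 (-0.88 to 0.43), was the gene of the 10 whose interval held 0.

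The 10 genes had a median log2 ratio of -0.27, beside -0.06 for all detected genes, and 6 of the 10 were below 0, as were 53.4% of all detected genes. With library totals in place of TMM, the median of all genes moved to -0.49 and that of the 10 genes to -0.70. Mir128-1 then changed sign, to -0.07, and Mir137 and Mir128-2 were called lower, at -1.12 and -1.23, so that 4 of the 10 were lower, as were 22.1% of all tested genes. In edgeR's exact test, whose dispersion came from these 2 libraries (coefficient of variation 0.444), 0 of the 10 genes and 6 of 358 genes (1.68%) had an adjusted p under 0.05. None of the 10 had an unadjusted p under 0.05 there. That dispersion is made of the same differences it is set against, so this count says little about Mir153 and Mir218-2, whose ratios were tested against counting error alone.

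**Figure D4:**
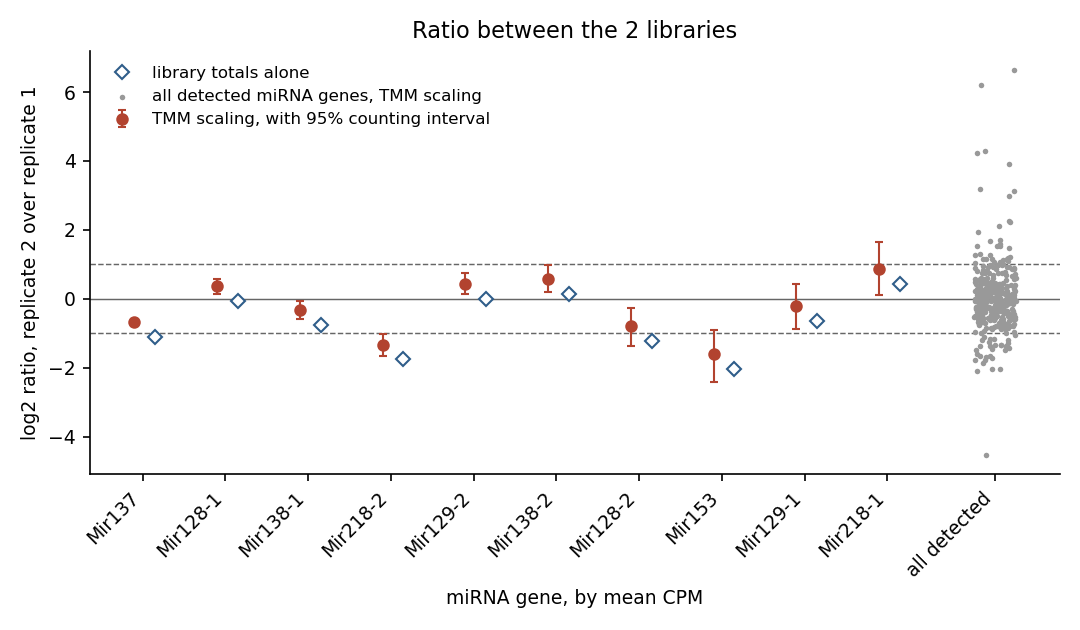
Log2 ratio of replicate 2 over replicate 1 for each gene under TMM scaling, with 95% counting intervals, and under library totals alone; grey points are all 358 detected genes and dashed lines mark a ratio of 1. Mir153 and Mir218-2 lay below -1 under both, and Mir128-1 fell on opposite sides of 0.

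The library total of replicate 2 held much Mir122, the main miRNA of hepatocytes. Mir122 made up 21.5% of miRNA counts in replicate 2 and 0.290% in replicate 1. With Mir122 left out of the totals, the 10 genes made up 0.0703% in replicate 2 and 0.103% in replicate 1, and Mir137 had 398 CPM in replicate 2 and 681 CPM in replicate 1. The summed markers of striated muscle stood at 1561 CPM in replicate 2 and 30.6 CPM in replicate 1, with 3 of 6 markers at 0 and Mir206 leading. Those of kidney and gut stood at 1153 CPM in replicate 2 and 107 CPM in replicate 1. Markers of leukocytes stood at 879 CPM in replicate 2 and 1908 CPM in replicate 1. Mir142 led this sum, at 402 CPM in replicate 2 and 1474 CPM in replicate 1. The other markers did not share its difference. Mir150 had 362.5 CPM in replicate 2 and 319.7 CPM in replicate 1, and Mir223 had 114.6 and 114.8 CPM. The part of these differences in the ratios of the 10 genes was not tested.

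Whether the 10 genes report on neurons could not be read from neuronal markers. Of the 6 markers of neurons, Mir124a-1, Mir124a-2, Mir124a-3 and Mir9-2 had 0 counts in both libraries, and Mir9-1 and Mir9-3 had 1 count in replicate 2 and 0 in replicate 1. Of windows of 20 bases, 0% to 16.7% in the 10 genes occur in another hairpin, against 18.3% to 52.8% in these markers. That share does not measure the reads lost. Mir218-1 and Mir218-2 stand at 3.30% although they share the whole of miR-218-5p. The Mir124a copies had no annotated arm in the sequence table, so arm sharing was not assessed for them. Whether reads of the 6 neuron markers were lost to shared stretches was not tested. Counts of 0 alone do not show that the miR-124 and miR-9 products are absent. Markers of neuroendocrine and chromaffin cells were all 4 detected and summed to 20170 CPM in replicate 2 and 39000 CPM in replicate 1, led by Mir375, known from endocrine cells. The log2 ratios were -0.51 for Mir375, -0.60 for Mir7b, -0.56 for Mir7-1 and -0.16 for Mir7-2, whose interval of -0.48 to 0.17 held 0. Of the 10 genes 6 had a log2 ratio below 0, Mir137 at -0.69 among them, and 4 had one above 0. Over all detected genes 53.4% were below 0. A link between these markers and the 10 genes was not tested. Markers of Schwann cells and oligodendrocytes had 2 of 3 genes detected and summed to 160 CPM in replicate 2 and 306 CPM in replicate 1, nearly all from Mir338. The cell types that hold the 10 miRNAs were not resolved in these whole glands.

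A wider list of 43 symbols of neuronal and neuroendocrine miRNA genes, chosen with earlier results of these data known, had 41 matches in the tables. Detected were 27 of these, where 16.3% of all annotated miRNA genes were. Of the 27 genes, 1 was higher in replicate 2 (9.22% of all tested genes were) and 2 were lower (8.66% were). This is no more than those shares. Their median log2 ratio was -0.14, beside -0.06 for all detected genes. The 5 most abundant were Mir375 at 25710 CPM ± 11440, Mir139 at 17810 ± 566, Mir7b at 3588 ± 1743, Mir487b at 2005 ± 709 and Mir134 at 663 ± 207 CPM (SD, n = 2). All 5 stood above Mir137, as did 7 genes of the list in all. Mir383 was the gene higher in replicate 2, with 219 counts there and 51 in replicate 1 (log2 ratio 2.11). The lower genes were Mir135b, with 18 counts in replicate 2 and 60 in replicate 1 (-1.69), and Mir592, with 41 in replicate 2 and 95 in replicate 1 (-1.18). The 9 genes of the list with no count in either library include the Mir124a and Mir135a copies.

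**Figure D5:**
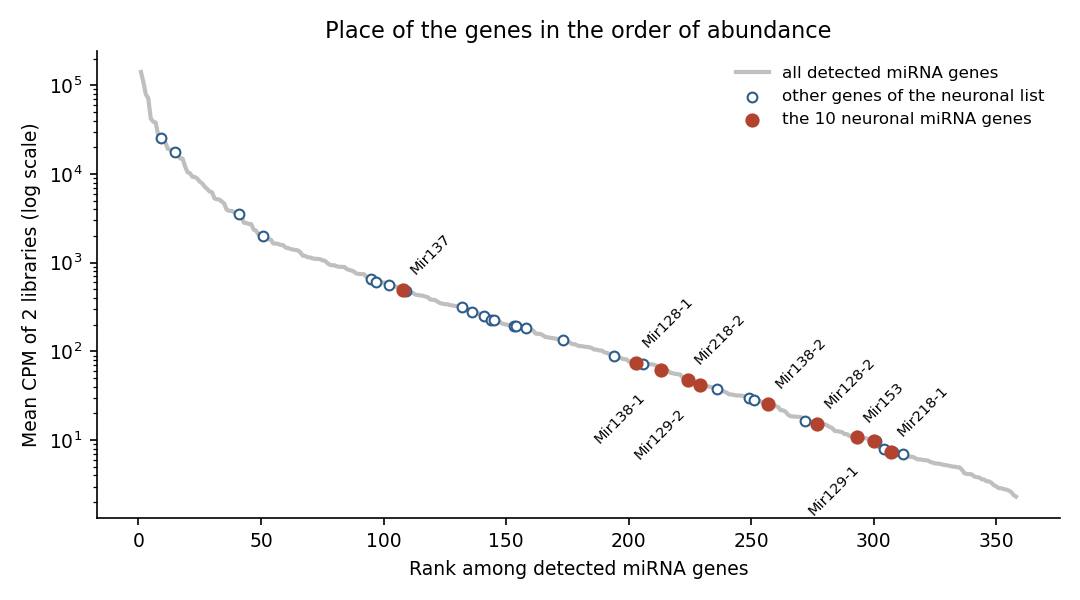
Mean CPM of the 2 libraries on a log scale against rank, for all 358 detected miRNA genes, with the 10 genes filled and the other genes of the neuronal list open. Mir137 stands at 496 CPM, and the other 9 genes lie between 7.43 and 74.5 CPM in the lower part of the order.

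All 10 genes lie within an annotated host gene on their own strand, 5 in protein-coding and 5 in noncoding genes. Positions are those of GENCODE M21 on mm10. Mir128-1 (ENSMUSG00000065520.2, chr1:128202361-128202430, plus strand) lies in an intron of R3hdm1, and Mir128-2 (ENSMUSG00000065441.2, chr9:112118636-112118711, minus strand) in an intron of Arpp21, which encodes a cAMP-regulated phosphoprotein of neurons. Mir218-1 (ENSMUSG00000065603.1, chr5:48223942-48224051, plus strand) lies in an intron of Slit2 and Mir218-2 (ENSMUSG00000065583.1, chr11:35616816-35616925, plus strand) in an intron of Slit3. Slit2 and Slit3 encode secreted ligands that repel growing axons. Mir153 (ENSMUSG00000065538.1, chr12:117250817-117250885, plus strand) lies in an intron of Ptprn2, and also within an intron of Gm5441 on the other strand.

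The other 5 genes lie in noncoding hosts. Mir137 (ENSMUSG00000065569.2, chr3:118433857-118433929, plus strand) overlaps an exon of Gm26871, and Mir129-1 (ENSMUSG00000065469.1, chr6:29022619-29022691, plus strand) an exon of Gm3294, a long noncoding RNA gene. Mir138-1 (ENSMUSG00000065414.1, chr9:122682876-122682974, plus strand) overlaps an exon of the transcribed pseudogene Gm47135, and Mir138-2 (ENSMUSG00000065512.3, chr8:94324311-94324381, plus strand) an exon of C78859. Mir129-2 (ENSMUSG00000065511.1, chr2:94241364-94241453, minus strand) lies in an intron of Mir670hg. That host also holds Mir670, with 12 counts in replicate 2 and 20 in replicate 1, and Gm23630, with 0 in both. Gm24155, in the host of Mir137, had 0 counts in both. The tables hold miRNA genes alone, so host transcripts were not measured.

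Among the 10 genes Mir129-2 alone has another miRNA gene, Mir129b, annotated across from it on the other strand. In the strand-specific counts Mir129-2 had 211 counts in replicate 2 and 159 in replicate 1, and Mir129b had 0 in both. In the opposite-strand column Mir129b had 211 counts in replicate 2 and 157 in replicate 1, and these lie on the strand of Mir129-2. In the column without regard to strand Mir129-2 had 0 counts in replicate 2 and 2 in replicate 1. That column's summary line of ambiguous reads held 1162285 reads in replicate 2 and 959702 in replicate 1. The opposite-strand column held 0 counts for each of the 10 genes in both libraries.

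Genes closest in level were named by the distance in log2 of CPM plus 1 over the 2 libraries, as a description. For Mir137 they were Mir181b-2 (distance 0.26), Mir25 (0.32) and Mir27a (0.38). For Mir128-1 they were Mir187 (0.16), Mir543 (0.17) and Mir3102 (0.24), and for Mir138-1 they were Mir679 (0.09), Mir877 (0.16) and Mir378c (0.17).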

How the data were processed

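For each of 2 small RNA libraries the authors deposited a table of raw counts on miRNA genes, without normalization. Build mm10 and annotation GENCODE M21 are named in the deposited text files. The sources used here do not name an aligner, a counter or a trimming step. Each table has 4 summary lines and 3 count columns without a header. Their values show a column without strand, the gene's own strand (used here) and the opposite strand. All 2202 identifiers matched GENCODE M21 miRNA genes. Reads counted on miRNA genes were 45.0% of all reads in replicate 2 and 35.4% in replicate 1.

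CPM and shares were computed over all miRNA genes, and detection meant at least 10 counts in each library. Ratios used edgeR TMM factors over detected genes (0.862 for replicate 2 and 1.16 for replicate 1) and a prior count of 0.5. The exact binomial test had Benjamini-Hochberg adjustment over the 358 detected genes. It was tried on simulated data that held counting error alone, which cannot show how it behaves with variation between animals. No quasi-likelihood contrast exists with 1 library on each side. The label of replicate 2 names 1 female and that of replicate 1 names 3, but both give 1 donor identifier. Each side of the ratio is 1 library, so p-values cover counting error alone. An arm was called shared when found whole in another hairpin that does not overlap it, over GENCODE hairpins. The genome itself was not searched.

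The genes and lists were chosen with earlier results of these data known. The text names all 10 genes, the 5 most abundant and any called gene of the neuronal list, the 3 nearest genes in level of the 3 most abundant genes, miRNA genes in shared hosts, and marker lists by their leading gene. The seed-sharing genes, and markers named beside the leading gene of their list, fall outside that rule and were chosen with their values known. Computations used R 4.3.3 with edgeR 4.0.16 and DESeq2 1.42.0, and Python 3.11.15 with scipy 1.17.1, pandas 2.3.3, Biopython 1.88, numpy 2.4.6 and matplotlib 3.10.9.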

Additional observations from a re-analysis of the deposited data

How the results depend on the processing

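The summed share of the 10 genes, 0.0792%, ran from 0.0552% to 0.103% with a library left out, and fell to 0.0466% with reads mapping to several places added to the total; it was 0.0507% for Mir137 and Mir153 alone, and 0.0869% to 0.0994% under the other alternatives run. All 10 genes remained detected with a minimum of 1 count, with replicate 2 thinned, and in each library alone. With a minimum of 100 counts 5 were, and in the column without regard to strand 9 were, without Mir129-2. The count of genes lower in replicate 2, 2 of 10, became 4 under library totals (22.1% of all tested genes), 5 without a ratio minimum (35.2%), 1 with a minimum of 100 counts (7.72%), since Mir153 then was not tested, and 0 in edgeR's exact test. The count of genes higher, 0, became 4 without a ratio minimum (32.7%). Signs changed for Mir128-1 under library totals, to -0.0716, and for Mir129-1 with replicate 2 thinned, to 0.0052; the cause was not tested. Of genes with no arm shared, 30.2% were detected, and 49.5% with a minimum of 1 count. Depth limits Mir153, Mir129-1 and Mir218-1 most, with 21 to 66 counts a library. No paired analysis was possible because the series has 1 group.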
